A study of Mus musculus with 2 samples.

Results

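Odorant receptors are the largest family of G protein-coupled receptors in mammals. Those examined here were the class II receptor genes whose probes were well above background in the olfactory bulb of a control mouse. Class II receptors were taken as the array's genes named Olfr and a number that lie outside chr7:109000000-113000000 of the mm9 assembly, the stretch that holds the class I receptors. The array carried 993 located class II probes for 956 genes, and 345 probes of 340 genes carried the scanner software's well-above-background flag on the control array. These 340 genes are 35.6% of the class II genes, beside 40 of 123 class I genes (32.5%) and 71.7% of all 37074 gene names on the array. The receptors were thus selected on their control signal, which is given, like its detection, as a description.

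The study compared total RNA of the olfactory bulb of 1 mouse under odor-enriched conditions with that of 1 control mouse under standard odor conditions. The Cy3-labelled cRNA of each mouse went onto an Agilent mouse array of its own. The labels give no strain, age, odor or duration, so the groups are described no further. With 1 array per group there are no replicates and no test between the mice, and every difference below is only as precise as a pair of arrays allows. All 10 genes of a list of bulb neuron markers, chosen after the data were known, were well above background on both arrays. Their median difference, odor enriched minus control, was -0.22 log2 units. Tbx21, a transcription factor present in mitral and tufted cells, was at least 2-fold higher, at 3.11. Cdhr1 and Slc17a7 were at least 2-fold lower, at -1.40 and -1.67, and the other 7 were within 2-fold. A list of T and NK cell markers, described below, was also higher, with a median of 4.02. Which cells the Tbx21 signal came from was not tested.

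Each olfactory sensory neuron of the nose expresses 1 receptor allele, and the axons of neurons with the same receptor converge on shared glomeruli of the bulb. Receptor mRNA is carried into these axons, so bulb RNA holds receptor transcripts although the neurons' cell bodies lie in the nasal epithelium. Class II receptors are the tetrapod-type majority of the family, and their genes have a single coding exon and lie in clusters on most chromosomes. RefSeq synonyms gave 330 of the 340 receptors a MOR family number, and all 330 numbers lay above 100, the highest being 286. In the class I stretch 118 of 119 numbers were under 100, so the genes' own family numbers matched the split by position.

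The probes are 60 bases long and were each printed once, so a receptor's value rests on a single spot in nearly all cases. The sequences below are those of receptors on which the results turn, taken from the deposited files, 5′ to 3′ in the sense of the mRNA, with mm9 positions. Capitals mark AACAAGGA, the 8-base run held by the most class II probes, found from their letters with no use of the signals and searched on both strands. It lies past the stretch that encodes the last transmembrane helix, in the part of the gene that encodes the receptor's tail. The first group shows receptors detected on the control array whose probe had a lower or undetected signal on the odor-enriched array.
Olfr150, chr9:39545229-39545288, plus strand: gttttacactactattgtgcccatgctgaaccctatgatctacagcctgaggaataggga
Olfr871, chr9:20017633-20017692, plus strand: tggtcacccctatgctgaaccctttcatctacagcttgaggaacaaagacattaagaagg
Olfr713, chr7:114180510-114180569, plus strand: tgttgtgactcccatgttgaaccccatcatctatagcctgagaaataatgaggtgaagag
Olfr965, chr9:39527651-39527710, plus strand: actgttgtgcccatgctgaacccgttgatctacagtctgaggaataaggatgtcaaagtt
Olfr131, chr17:38218981-38219040, minus strand: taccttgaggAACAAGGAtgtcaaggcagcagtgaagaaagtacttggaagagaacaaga
The second group shows 3 receptors with a higher signal on the odor-enriched array and Olfr173, the brightest on the control array.
Olfr1500, chr19:13901950-13902009, minus strand: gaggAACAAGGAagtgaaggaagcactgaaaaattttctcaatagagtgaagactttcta
Olfr1107, chr2:86911351-86911410, minus strand: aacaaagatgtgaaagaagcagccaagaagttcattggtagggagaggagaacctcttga
Olfr1383, chr11:49338102-49338161, plus strand: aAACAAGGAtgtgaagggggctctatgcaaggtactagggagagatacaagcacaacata
Olfr173, chr16:58796971-58797030, minus strand: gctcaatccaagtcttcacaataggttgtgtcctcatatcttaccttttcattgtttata
The third group shows the 2 probes of Olfr1097, which lie end to end in 1 gene; only probe 1 was detected on the odor-enriched array.
Olfr1097 probe 1, chr2:86730390-86730449, minus strand: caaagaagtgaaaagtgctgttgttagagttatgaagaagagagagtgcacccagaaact
Olfr1097 probe 2, chr2:86730450-86730509, minus strand: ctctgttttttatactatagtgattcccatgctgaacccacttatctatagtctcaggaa

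The receptors were dim. On the control array their processed signal, an intensity after background subtraction, had a median of 12.65, quartiles of 8.16 and 25.59, and a range of 5.07 to 1999. For comparison, the 308 negative control spots had a median signal of 1.65 on the odor-enriched array, where 1 was well above background, and 0.99 on the control array, where none was. Only 68 of the 340 receptors reached a control signal of 32 and 30 reached 64. The threshold itself fell at a signal of about 5. Just inside it were Olfr196 at 5.07, Olfr1295 at 5.09 and Olfr114 at 5.15, and just outside it were Olfr1230 at 4.88, Olfr706 at 4.92 and Olfr1240 at 5.07.

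The receptors with the highest control signal came from 8 chromosomes. Olfr173, on chromosome 16, had a signal of 920 on the odor-enriched array and 1999 on the control array. Olfr1500, on chromosome 19, had 4237 on the odor-enriched and 545.5 on the control array, and Olfr699, on chromosome 7, had 3059 on the odor-enriched and 357.6 on the control array. Olfr1500 and Olfr699 were thus the brightest class II receptors of the odor-enriched array, while Olfr173 led on the control array. Olfr812 had 137 on the odor-enriched and 324.8 on the control array, and Olfr279 had 187.1 on the odor-enriched and 316.8 on the control array. Olfr97 had 181.1 on the odor-enriched and 308.9 on the control array, so these 3 were dimmer on the odor-enriched array but within 2-fold after scaling. Olfr722 had 487.5 on the odor-enriched and 249.5 on the control array. Olfr722, alone among these 4, was brighter on the odor-enriched array. Olfr744, Olfr1229 and Olfr287 completed the 10 brightest, with odor-enriched signals of 164.9, 156.8 and 209.8 and control signals of 212.6, 191.4 and 187. These last 3 receptors differed by less than 1.5-fold between the arrays after scaling. Signals of different receptors are not comparable as transcript levels, because each comes from its own probe.

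**Figure D1:**
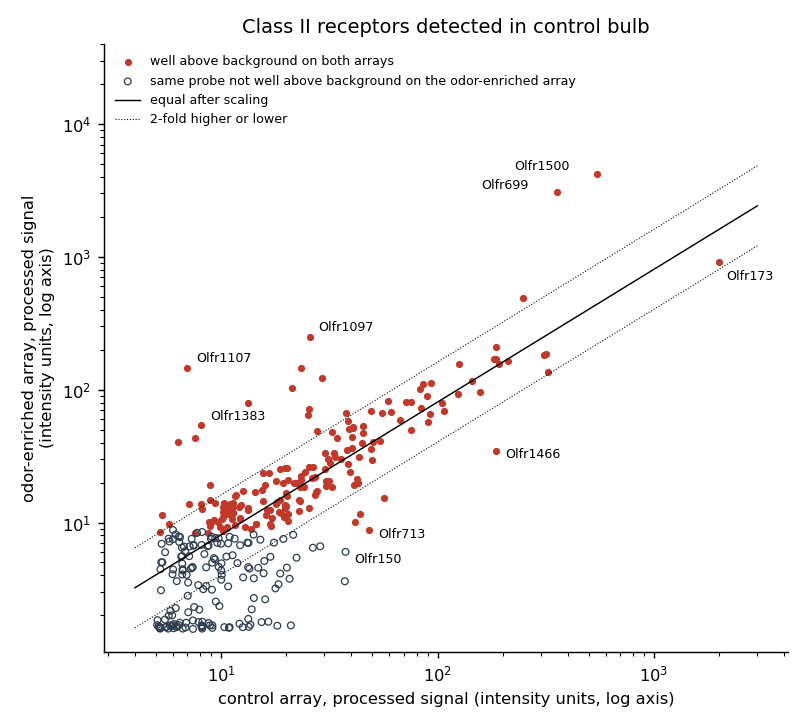
Processed signal of each of the 340 receptors on the odor-enriched array (vertical, log axis, intensity units) against the control array (horizontal, log axis, intensity units). Filled points are the 186 receptors well above background on both arrays, open points the rest, the solid line marks equal signal after scaling and dotted lines mark 2-fold; most filled points lie within the dotted lines, and open points lie at control signals of 37.6 or less.

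The 340 receptors were spread over 17 chromosomes. Class II probes separated by gaps of at most 1 Mb formed 47 clusters, of which 36 held at least 1 detected receptor. Among the 18 clusters with at least 15 genes, which held 839 genes and 295 of the detected receptors, the detected share ranged between 13.3% and 73.7%. The highest share was that of chr7:147348160-147891090, with 14 of 19 genes, followed by chr11:48926330-49377519, with 13 of 18 genes (72.2%). The lowest was that of chr7:93417367-93836967, with 2 of 15 genes. The largest cluster, chr2:85171954-90122482, had 59 of 215 genes detected (27.4%), with Olfr1229 as its brightest receptor. The next largest, chr9:37519803-39995628, had 38 of 98 (38.8%), with Olfr229 as its brightest, at 80.3 on the odor-enriched and 75.36 on the control array.

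The clusters also differed in how many of their detected receptors were well above background on the odor-enriched array. In the chromosome 11 cluster with 18 genes it was 10 of 13, and in the chromosome 9 cluster with 98 genes it was 26 of 38. In the chromosome 7 cluster with the highest detected share it was 4 of 14, and in chr2:111071010-111997033 it was 3 of 13. Over all detected receptors it was 54.7%. The detected receptors of these clusters had median control signals of 12.9, 13.6, 11.1 and 8.9, in the order given. By contrast, chr19:11902567-13994462 had a median of 14.9 and 8 of 22. Dim receptors were less often detected on the odor-enriched array, as given below. The part of control signal in the cluster counts was not tested. Neighbouring genes are not replicates of a cluster, so these shares describe the 2 arrays. By family, the detected share in the 18 MOR families with at least 12 genes ran from 1 of 13 in MOR114 (7.69%) to 10 of 17 in MOR103 (58.8%). The largest family on the array, MOR256, had 20 of 46 (43.5%), and 12 of these 20 were well above background on both arrays.

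**Figure D2:**
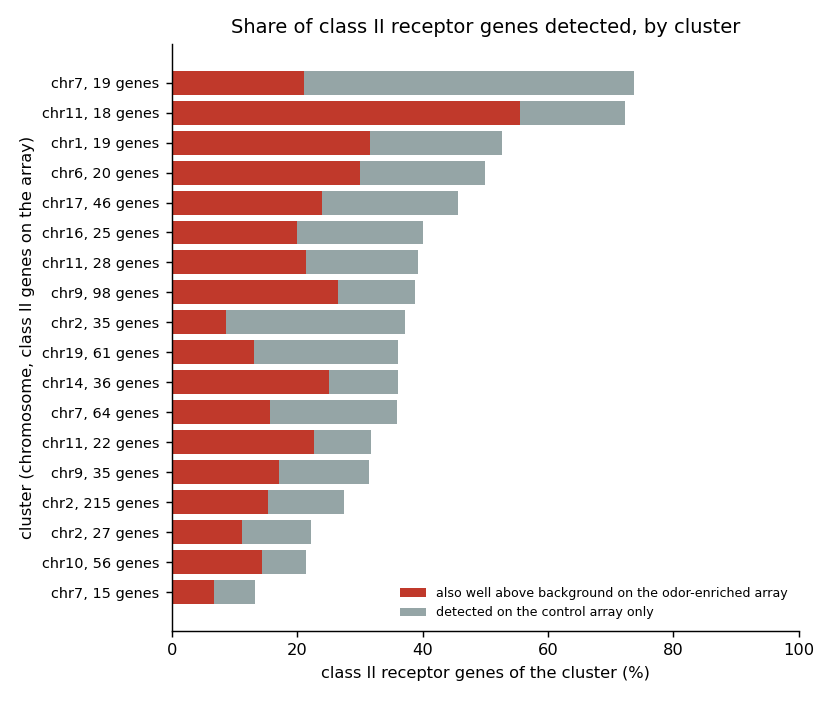
Share of class II receptor genes detected on the control array (horizontal, percent) in each of the 18 clusters with at least 15 genes (rows, named by chromosome and gene number). The dark part of a bar is the share also well above background on the odor-enriched array and the pale part the share detected on the control array only; the detected share runs between 13.3% and 73.7%.

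Detection of class II probes moved with their base composition. The 345 detected probes held 25.9 ± 2.8 G or C bases (mean ± SD over probes), and the 648 other class II probes held 23.7 ± 2.7. Of class II probes with at most 21 such bases, 4.69% were well above background on the odor-enriched array and 10.7% on the control array. Of those with 28 or more, 46.5% were on the odor-enriched array and 62.0% on the control array. In probes of genes that are no receptors, the control array's share ran from 66.8% to 83.5% over the same composition classes, a smaller range. These probes were brighter, with median control signals of 24.4 or more per class, against 9.38 or less for class II. The steeper rise was not particular to class II. On the control array class I probes ran from 0.0% (of 15) to 71.4% (of 14). Probes of vomeronasal receptor (Vmn) genes ran from 5.66% (of 106) to 66.7% (of 3). Across the 18 large clusters the detected share and the mean number of G or C bases per probe had a Pearson correlation of 0.61. This is a description over 18 clusters that share the same 2 arrays, and the part of probe composition in the cluster shares was not tested.

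**Figure D3:**
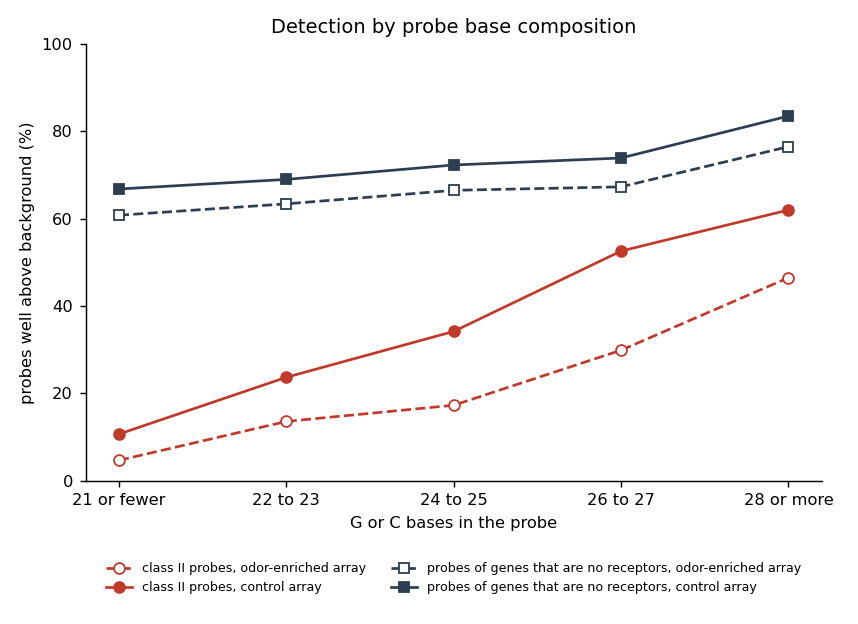
Share of probes well above background (vertical, percent) by the number of G or C bases in the 60-base probe (horizontal), for class II receptor probes and for probes of genes that are no receptors, on the odor-enriched array (dashed lines, open symbols) and the control array (solid lines, filled symbols). The class II line of the control array climbs from 10.7% to 62.0%, and that of the other genes from 66.8% to 83.5%.

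On the odor-enriched array 186 of the 340 receptors (54.7%) were well above background with the same probe, beside 89.8% of all genes detected on the control array. Of the rest, 153 were detected on the control array only and Olfr401 was detected on the 2 arrays with different probes. The receptors' control signal was low, and the lowest signal well above background was higher on the odor-enriched array, at 7.97 against 4.85 on the control array, a gap of 1.03 log2 units after scaling. The share was therefore read within classes of control signal. At control signals of 4 to 8 it was 10% of receptors (8 of 80), beside 25.8% of all genes, and at 8 to 16 it was 45.8%, beside 62.9%. At 16 to 32 it was 78.4% of receptors, beside 91.8% of all genes, and at 32 to 64 it was 94.7%, beside 98.7%. All 30 receptors with a control signal of 64 or more were also detected on the odor-enriched array, beside 99.9% of all genes. Within the 4 classes under 64 the class II receptors' share was thus the lower one. Under 16 this was not particular to class II. At 16 to 32 class I genes were also below all genes but Vmn genes were not, and at 32 to 64 neither was, with few genes in each. Class I genes had 9.09% at 4 to 8 (1 of 11) and 40.0% at 8 to 16 (6 of 15). At 16 to 32 class I genes had 83.3% (5 of 6), and at 32 to 64 all 3 were detected. Vmn genes had 23.1% at 4 to 8 (3 of 13) and 40.0% at 8 to 16 (4 of 10), and all of them at 16 to 64 were detected. In bulk tissue, fewer sensory axons in a sample and less receptor RNA per axon cannot be told apart.

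**Figure D4:**
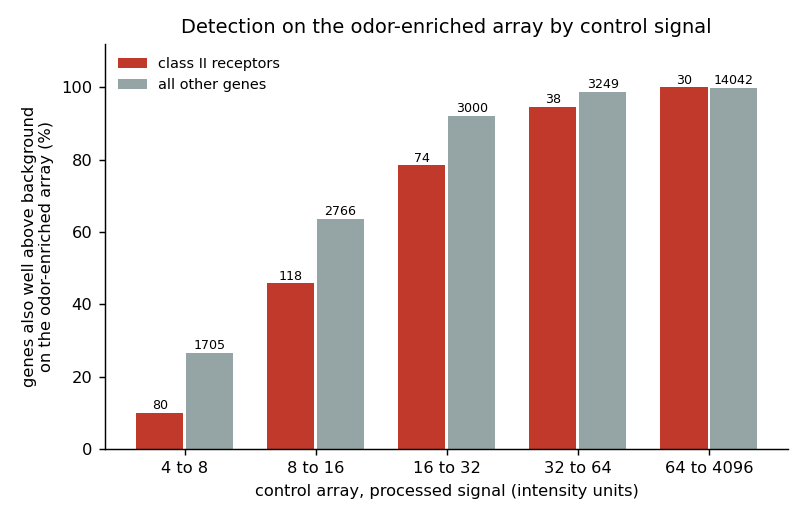
Share of genes detected on the control array that were also well above background on the odor-enriched array (vertical, percent), in 5 classes of control signal (horizontal, intensity units), for class II receptors and all other genes. Numbers above bars are genes in the class; the receptors' bar is lower in the 4 classes under 64, from 10% against 26.5% in the dimmest to 94.7% against 98.7% in the brightest of them.

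Among the 186 receptors measured on both arrays, the median difference was 0.26 log2 units, odor enriched minus control, beside 0.0 over all 23872 genes measured on both arrays. The difference was above 0 in 124 receptors and below 0 in 62. At least 2-fold higher were 23 receptors (12.4%), beside 11.5% of all genes, and at least 2-fold lower were 5 (2.69%), beside 5.52% of all genes. The filter shapes these values: a dim receptor stays in the comparison only if its odor-enriched signal was high enough to be detected. With all 340 receptors and no such filter the median difference was -0.13, and in the 153 detected on the control array only it was -1.15. For class II genes selected by the same flag on the odor-enriched array, with no filter on the control array, the median was 0.30, with 33 genes at least 2-fold higher and 5 lower. The sign of the median thus followed the array on which genes were chosen. Scaled on E1A spike-in probes instead of the 75th percentile, 1 receptor was at least 2-fold higher and 175 were at least 2-fold lower. Whether both samples received equal amounts of spike-in is not stated in the sources used here. In that scaling the median of all genes was -3.12 and that of the receptors -2.87. All differences in the rest of the text are relative to the 75th percentile.

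A bound allows receptors detected on the control array only to be counted. It sets the control value against the odor-enriched value of the probe or the lowest detected signal of that array, whichever is higher. The count was restricted to control signals between 19.8, which is 2-fold above that lowest signal after scaling, and 64. In this range 13 of 84 receptors (15.5%) were at least 2-fold lower on the odor-enriched array, beside 7.28% of all genes, and 8 (9.52%) were at least 2-fold higher, beside 13.8% of all genes. At control signals of 32 to 64 it was 6 of 38 receptors (15.8%), beside 7.06% of all genes. At 64 and above, 1 of 30 receptors was at least 2-fold lower (3.33%), beside 7.22% of all genes. The receptors' share of lower calls was thus above the share over all genes in the middle range. In the brightest class it was below that share, but this rests on 1 receptor and is too few to read as a pattern. At 32 to 64, 0 of 3 class I genes and 0 of 7 Vmn genes were at least 2-fold lower.

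The largest differences upward were those of 5 receptors. Olfr1107 had a signal of 146.3 on the odor-enriched array and 6.95 on the control array, a difference of 4.71. Its probe shares a run of 20 bases with a probe of Olfr1036, but neither probe of Olfr1036 was detected, with at most 5.21 on the odor-enriched and 3.15 on the control array. Olfr699 was 10.6-fold higher and Olfr1500 9.65-fold higher on the odor-enriched array, and these 2 were bright on both arrays. Olfr1383 had 53.89 on the odor-enriched and 8.08 on the control array, a difference of 3.05. Of all 23 receptors at least 2-fold higher, 19 had a control signal under 32. Of the measured receptors these were 7 of 8 at 4 to 8, 5 of 54 at 8 to 16 and 7 of 58 at 16 to 32. In the dimmest class an odor-enriched signal of at least 7.97 was needed for detection, which favours higher calls. The 23 were not confined to 1 region. In the chromosome 9 cluster with 98 genes 6 of 26 measured receptors were higher, beside 12.4% of all measured receptors. It was 3 of 6 in chr1:174887798-176379731, 3 of 8 in chr10:128427795-129647278 and 3 of 10 in chr11:48926330-49377519. These were the clusters with the most higher receptors, and the counts on chromosomes 1, 9 and 10 include receptors of the dimmest class. Elsewhere it was 2 of 33 in the largest cluster, chr2:85171954-90122482, and 0 of 11 in chr17:37222226-38472904.

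Olfr1097 shows how far a single probe carries. Its probe 1 had 249.8 on the odor-enriched and 25.68 on the control array, a difference of 3.59. Its probe 2, adjacent to it in the coding sequence, had 1.73 on the odor-enriched array, at the level of the negative controls, and 5.44 on the control array. The control signal of probe 2 is under the lowest signal detected on the odor-enriched array, so a fall could not be measured with it. A rise as large as that of probe 1 would have put probe 2 above that lowest signal, but probe 2 was not detected. The 2 probes thus disagree on a rise of that size. The gene's value is that of probe 1 alone. Of the 17 receptors with at least 2 probes, all probes passed on the control array in 5 and only some in 12. Olfr1115, Olfr56, Olfr884, Olfr1333 and Olfr1247 were the brightest of these 12. For Olfr1115 the passing probe had 34.97 on the odor-enriched and 38.03 on the control array, and the other had 1.63 on the odor-enriched and 1.0 on the control array.

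The largest differences downward were those of 5 receptors, of which 1 is a model in axon tracing. That receptor, Olfr713, known as P3, had a signal of 8.73 on the odor-enriched array and 48.25 on the control array, 4.44-fold lower. Olfr1466 had 34.43 on the odor-enriched and 186.9 on the control array, 4.38-fold lower. Olfr131, Olfr1270 and Olfr965 had 10.17, 11.59 and 15.28 on the odor-enriched array and 41.4, 43.66 and 56.86 on the control array. Their differences were -1.71, -1.60 and -1.58. In the RefSeq table Olfr1270 overlaps Olfr32, another of the detected receptors. The probe of Olfr131 shares a run of 20 bases with probes of 3 other receptors, as does that of Olfr965. That of Olfr713 shares such a run with the probe of Olfr470, which had 5.39, undetected, on the odor-enriched and 9.27 on the control array. The odor-enriched signal of Olfr713 was also close to the lowest detected on that array, 7.97.

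The brightest receptors detected on the control array only were Olfr150, Olfr871, Olfr208, Olfr1263 and Olfr1499. Olfr150, known as M93, had 6.01 on the odor-enriched array and 37.6 on the control array, at least 3.8-fold lower. Olfr871 had 3.61 on the odor-enriched and 37.32 on the control array, at least 3.77-fold lower. Olfr208 had 6.62 on the odor-enriched and 28.72 on the control array, at least 2.9-fold lower. Olfr1263 was at least 2.69-fold lower and Olfr1499 at least 2.26-fold lower. The files place the probe of Olfr208 partly over the same stretch and strand of chromosome 16 as 1 probe of Olfr209, so these probes read shared sequence. The 2 probes of Olfr209, that one first, had 7.33 and 19.18 on the odor-enriched array and 49.69 and 41.31 on the control array. In all, 53 of the 153 receptors had a bound above 1, and 9 had a bound of at least 2-fold.

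The run AACAAGGA was held by 12 of the 345 detected probes (3.48%), by 34 of 648 other class II probes (5.25%) and by 0.495% of all probes. The 12 probes had a median difference of -0.69, and the 333 detected probes without the run had one of -0.13. The 12 went both ways, since Olfr1500 and Olfr1383 were among the receptors furthest upward and Olfr131 among those furthest downward. In 7 of the 12 the probe was not detected on the odor-enriched array, beside 46.1% of all 345 probes. Stretches of coding sequence are shared among many receptors, and 40 of the 345 probes share a run of 20 bases with a probe of another receptor. What such probes read besides their own gene was not tested.

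**Figure D5:**
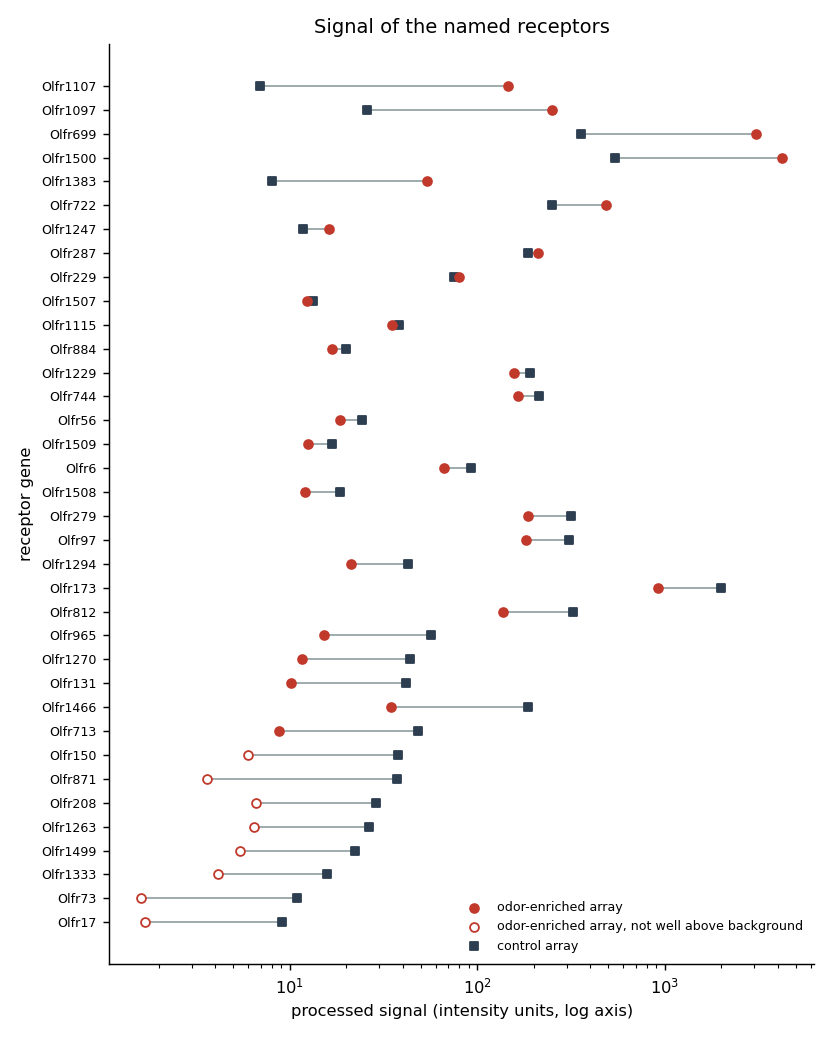
Processed signal (horizontal, log axis, intensity units) of the named receptors on the odor-enriched array (circles, open where not well above background) and the control array (squares), with receptors measured on both arrays on top, ordered by their log2 ratio, and those detected on the control array only below them, ordered by control signal. Olfr1107 at the top had 146.3 on the odor-enriched and 6.95 on the control array; of the receptors measured on both arrays, Olfr713 came last, with 8.73 on the odor-enriched and 48.25 on the control array.

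Of 18 receptors with a known ligand or a use in tracing studies, 7 were among the 340 detected receptors (38.9%, beside 35.6% of all class II genes), and 11, such as Olfr2 (I7), Olfr16 (MOR23), Olfr151 (M71) and Olfr160 (M72), were not. Olfr6, known as M50, had 66.12 on the odor-enriched and 92.76 on the control array, a difference of -0.18. Olfr17, known as P2, had 1.68 on the odor-enriched array and 9.12 on the control array, too dim for a bound, and Olfr73, the eugenol receptor mOR-EG, had 1.61 on the odor-enriched and 10.88 on the control array. Olfr1507 (Mor28), Olfr1508 (Mor10) and Olfr1509 (Mor83), neighbours on chromosome 14, had 12.34, 12.07 and 12.45 on the odor-enriched array and 13.31, 18.54 and 16.79 on the control array. Their differences were 0.20, -0.31 and -0.12, all within 2-fold. In RefSeq these 3 genes overlap Tcra, the T cell receptor alpha locus, and the list of T and NK cell markers was higher on the odor-enriched array, where all 6 genes measured passed 2-fold and the median was 4.02. The part of such cells in the 3 receptors' values was not tested.

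The pathway around the receptors was described with lists of fixed genes. The shares over all genes measured on both arrays, 11.5% higher and 5.52% lower, stand beside their counts. Of 16 genes of odorant transduction, 15 were measured on both arrays, 8 of them at least 2-fold lower on the odor-enriched array and 0 higher, with a median of -1.09. Gnal, the G protein alpha subunit that receptors activate, had 711.7 on the odor-enriched and 2515 on the control array, and the cyclic nucleotide-gated channel subunit Cnga2 had 45.5 on the odor-enriched and 146.5 on the control array. Adcy3, the adenylyl cyclase that Gnal drives, had a difference of -0.94, within 2-fold. Of 3 genes that help receptors reach the membrane, 2 were measured on both arrays, 1 of them at least 2-fold lower and 0 higher, with a median of -0.86. Reep1 had 396.9 on the odor-enriched and 492.1 on the control array, equal after scaling. Rtp2 had 53.9 on the odor-enriched and 219.9 on the control array, and Rtp1, detected on the control array only, had 1.9 on the odor-enriched and 15.9 on the control array. Among 16 genes of receptor choice, Ebf1 and Lbr were at least 2-fold higher and Ebf2 and Atf5 at least 2-fold lower, with a median of -0.39. The 2 higher of 16 are close to the share over all genes. Of 10 genes of axon sorting, Nrp1 and Nrp2 were higher, at 1.87 and 1.31, and 0 were lower, with a median of -0.05.

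Markers of the cells that bulb tissue can hold were counted in the same way. The sensory neuron list had 13 genes, of which 10 were measured on both arrays, 8 of them at least 2-fold lower on the odor-enriched array, and 3 were detected on the control array only, with a median of -1.54 over the 10. Apart from Umodl1, S100a5 and Calb2, these genes were already counted in the transduction and trafficking lists, so the lists are not independent. S100a5 had a difference of -1.62 and Calb2 of -0.88, and Umodl1 was detected on the control array only. The summed signal of this list, before scaling, was 32387 on the odor-enriched array and 159266 on the control array. Most of it came from Omp, Gng13 and S100a5. Within the list Omp, the olfactory marker protein, had 9014 on the odor-enriched and 71710 on the control array. The list of olfactory ensheathing glia, cells that wrap the sensory axons, had 6 of 7 genes at least 2-fold lower and a median of -1.59. All 5 immature sensory neuron genes were within 2-fold, with a median of 0.19. Which cells of the bulk tissue the signal of these 5 genes came from was not tested. The genes of the sustentacular cell, basal and respiratory epithelium, nasal gland and testis lists measured on both arrays were also within 2-fold. Their medians were 0.31 over 3 genes, -0.08 over 5, -0.14 for 1 gene and 0.11 over 4. Other genes of these lists were detected on 1 array only. Sustentacular Cyp2g1 and Sec14l3 had 1.7 and 3.7 on the odor-enriched array, undetected, and 11.2 and 21.3 on the control array. Sustentacular Muc2 had 13.1 on the odor-enriched array and 1.2, undetected, on the control array. The nasal gland genes Mup4 and Lcn11 were detected on the control array only, at 9.3 and 5.2. Testis is a further place where receptor transcripts are found. The receptors' median was 0.26 over those detected on both arrays and -0.13 over all 340. The part of sensory axon content in the receptors' differences was not tested, and it cannot be told apart from odor exposure or from the difference between 2 single mice.

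Outside the 340 receptors, 10 class II genes were detected on the odor-enriched array only (1.05% of class II genes, beside 1.21% of all genes). The 153 detected on the control array only were 16% of class II genes, beside 7.29% of all genes. The odor-enriched array also had the higher detection limit given above and fewer spots above background. Olfr169 led with 93.55 on the odor-enriched and 1.09 on the control array, but the median difference of the spots around it was 2.4, so it lies in a bright patch of that array. The neighbourhoods of the 340 receptors' spots had medians between -0.31 and 0.69. Next was Olfr1480, with 20.68 on the odor-enriched and 4.76 on the control array.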

How the data were processed

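Olfactory bulb RNA of 1 odor-enriched and 1 control mouse was measured on 1 Agilent array each. Per the file headers, the deposited intensity values come from Agilent Feature Extraction 11.5.1.1. The processed signal is background-subtracted. The authors deposited a matrix of log2 values, which equal the log2 processed signal minus 1 constant per array. Its scale was found from the values, and the origin of the constants is not given in the sources used here. Median local background was 22 on the odor-enriched and 17 on the control array, and well above background were 67.6% of spots on the odor-enriched and 73.7% on the control array.

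Outlier-flagged spots were left out, spots of a probe were averaged, and each array's 75th percentile was subtracted (7.655 for the odor-enriched and 7.966 for the control array). A gene counted as detected if at least 1 probe was well above background, and probes passing on both arrays were averaged for its value. Differences are odor enriched minus control, and 2-fold was the threshold. The calling procedure was tested on simulated data. The simulation kept the control array's detection flags, so it did not cover loss of detection or the bound. Alternatives covered scaling, normalization, filters, flags and cluster gaps. limma 3.58.1 in R 4.3.3 made the quantile, loess and normexp versions, and Python 3.11.15 with pandas 2.3.3 and numpy 2.4.6 the rest.

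Named receptors were the 10 brightest on the control array, the 5 largest differences in each direction, the 5 brightest detected on the control array only, the brightest of each of the 8 largest clusters, up to 5 with discordant probes, and a list of receptors of known ligand or use in tracing. Olfr401, Olfr209, Olfr169 and Olfr1480, the receptors at the detection threshold, Olfr1036 and Olfr470 were named after their values were seen. The receptors, lists and tests were chosen with earlier results of these data known. Symbols are those of the array, and 338 of the 340 were found in the RefSeq table of GRCm38.p6, used for names, families and overlaps. Besides the 8-base run, a longer degenerate pattern of the last transmembrane helix was searched first, and its values are not reported here. The 7 receptor probes without a location were left out, 2 of them detected. The Olfr699 probe spans 36 bases in the files' coordinates and is not printed.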

Additional observations from a re-analysis of the deposited data

How the results depend on the processing

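The 340 receptors became 620, and those also detected on the odor-enriched array 425, with the positive-and-significant flag. The median difference of 0.26 was 0.08 after centring on the array median, 0.34 with the percentile over detected probes, 0.09 after quantile, 0.19 after cyclic loess and 0.02 after normexp normalization, and 0.59 in the deposited matrix. It was -0.13 without the filter on the odor-enriched array, where 92 receptors were at least 2-fold lower, and -2.87 with spike-in scaling, chosen after seeing the data, where 1 was higher, 175 were lower and the bound count was 301. The median of all genes was -0.17 after array-median centring, 0.33 in the deposited matrix and -3.12 with spike-ins. The 23 higher receptors were 8 after normexp and 40 in the deposited matrix, 50 at 1.5-fold and 13 at 3-fold. The 5 lower were 1 after normexp and 13 at 1.5-fold. The 13 lower with bounds were 25 after cyclic loess, 8 in the deposited matrix and 0 after normexp. Which receptors were eligible for the bound count was set anew in each setting. These bound counts, like the 301 above, thus do not share the base of 84 receptors. Normexp used an offset of 50, which leaves receptors under 64 little room to lie 2-fold above the lowest detected signal. Its 0 is therefore no finding of fewer lower receptors. The array-median, detected-percentile, deposited-matrix and spike-in settings differ from the main one only by 1 constant per array. In each of them, as in the main one, the receptors' median minus that of all genes was 0.25, from unrounded medians. It was 0.14 after quantile, 0.13 after cyclic loess and 0.05 after normexp normalization. The cause of the remaining shifts was not tested.

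Of 132 recomputed differences of 11 named receptors, 51 equalled the reported value to 2 decimals, since settings such as the brightest probe hardly touch them. Of the other 81, 71 kept their direction and a size of at least 2-fold, 8 kept their direction at under 2-fold and 2 reversed, Olfr722 to -1.84 and Olfr1383 to -0.07, both with spike-in scaling. After normexp, the differences of Olfr713, Olfr131, Olfr1270, Olfr965 and Olfr1383 were under 2-fold. No paired analysis was possible because each group has 1 array, and no replicate could be left out. The 300 repeat-printed probes spread by 0.05 log2 units in the difference, but the dimmest had a control signal of 73, so the spot error at most receptors' signal is not known.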
